A study of Mus musculus with 16 samples.

Results

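Of 80595 accessible regions found in differentiating mouse embryonic stem cells, 534 (0.663%) were open on day 3 in every wild type, Tet1 catalytic mutant and XAV-treated Tet1 knockout library and in none of the untreated knockout or CHIR-treated wild type libraries. They are called members below. The members were selected on the deposited ATAC-seq peak lists. In each of the 16 lists the 50000 distinct intervals with the highest −log10 p were kept, windows of 150 bp on either side of their summits were merged over libraries, and windows held by at least 2 libraries made the regions. A region counted as open in a library where a kept interval overlapped it. Because the day 3 libraries chose the members, all day 3 values and all results of the same contrast are given as a description, with no test. "Closed" here means that no interval among the top 50000 touched the region, which is not the same as the absence of a peak.

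The study differentiated embryonic stem cells toward anterior neural progenitor cells and sampled 8 groups of 2 libraries. On day 3 these were Tet1 knockout (KO) lines KO1 and KO15, wild type (WT) lines WT7 and WT34 with 3 µM CHIR99021 (CHIR), the same KO lines with 5 µM XAV939 (XAV), catalytic mutant (MUT) lines CM59 and CM69, and WT lines WT70 and WT72. CHIR and XAV were given from day 2. On day 2 the groups were the same KO, MUT and WT lines, with neither agent. All lines are male and of a mixed B6 and 129S6 background, the KO lines carry the Tet1tm1Koh allele, and the MUT lines are clones edited from the line of CHIR replicate 1 (WT7). The CHIR lines differ from the untreated WT lines, so line and CHIR cannot be told apart, and neither a vehicle group nor a day 2 library of the CHIR lines was labelled. The day 2 lists of replicate 2 are named as merged. Replicates are separate lines, so a spread or p given here measures differences between lines, and the KO lines of day 2 are those of day 3. The MUT lines share a parent, and whether WT70 and WT72 derive from it too was not established. The MUT and WT libraries pooled as controls on day 2 may therefore not be independent, which the tests do not take into account.

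ATAC-seq reads out where a transposase can enter the DNA, and so marks promoters and distal regulatory elements that transcription factors hold open. TET1 oxidises methylated cytosine, a step toward its removal, and also acts without its catalytic activity. CHIR99021 inhibits the kinase GSK3 and thereby stabilises β-catenin, the activator of Wnt target genes, whereas XAV939 inhibits tankyrase and so favours the breakdown of β-catenin. In differentiating pluripotent cells Wnt signalling promotes primitive streak fates, and its inhibition favours anterior neural ones. SOX2, the OCT4 octamer-binding factor and OTX2 are transcription factors of the pluripotent and neural epiblast, and TEAD proteins are the DNA-binding partners of YAP in the Hippo pathway.

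The sequences of 7 members are shown because they hold the consensus sequences that set the members apart below. Each is 200 bases of the plus strand of mm10, read from GRCm38.p6, with 100 bases on either side of the strongest summit. Capitals mark a match, on either strand, to a SOX consensus (ACAAAG), its variant (here called the SOX variant, ACAATG), a TEAD consensus (GGAATG), the octamer (ATGCAAAT), an OTX consensus (GGATTA) or an E-box (CAGGTG). Each carries the name of the closest protein-coding gene, judged by its transcription start site (TSS), and the name makes no claim that the member acts on that gene.
Krtap13-1, chr16:88720134-88720333: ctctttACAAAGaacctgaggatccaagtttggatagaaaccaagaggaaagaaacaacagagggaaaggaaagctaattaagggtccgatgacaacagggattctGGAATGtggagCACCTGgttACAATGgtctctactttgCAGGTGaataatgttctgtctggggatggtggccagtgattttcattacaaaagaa
Svep1, chr4:58218652-58218851: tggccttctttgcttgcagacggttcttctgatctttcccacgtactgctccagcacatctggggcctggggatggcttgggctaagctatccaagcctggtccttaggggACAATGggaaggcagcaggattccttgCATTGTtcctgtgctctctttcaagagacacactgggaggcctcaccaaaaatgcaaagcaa
Ldlrad3, chr2:102244558-102244757: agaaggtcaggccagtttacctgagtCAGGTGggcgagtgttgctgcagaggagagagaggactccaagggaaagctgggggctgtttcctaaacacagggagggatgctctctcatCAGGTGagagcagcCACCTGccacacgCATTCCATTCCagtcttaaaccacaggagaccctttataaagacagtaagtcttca
Prdm16, chr4:154600037-154600236: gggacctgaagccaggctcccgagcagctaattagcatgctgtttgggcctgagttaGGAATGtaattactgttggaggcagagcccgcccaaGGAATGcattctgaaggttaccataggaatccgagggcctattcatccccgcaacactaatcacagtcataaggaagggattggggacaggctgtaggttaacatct
Fgfr2, chr7:130176948-130177147: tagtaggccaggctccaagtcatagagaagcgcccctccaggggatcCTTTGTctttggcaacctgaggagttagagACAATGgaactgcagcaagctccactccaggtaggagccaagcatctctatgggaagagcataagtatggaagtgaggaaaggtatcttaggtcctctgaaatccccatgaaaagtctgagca
Nfib, chr4:82543445-82543644: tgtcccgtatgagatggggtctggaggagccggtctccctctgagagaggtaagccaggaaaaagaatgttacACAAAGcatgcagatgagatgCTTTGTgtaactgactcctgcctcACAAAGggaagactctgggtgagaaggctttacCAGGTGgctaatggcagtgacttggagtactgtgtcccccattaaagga
Gm4791, chr9:46982176-46982375: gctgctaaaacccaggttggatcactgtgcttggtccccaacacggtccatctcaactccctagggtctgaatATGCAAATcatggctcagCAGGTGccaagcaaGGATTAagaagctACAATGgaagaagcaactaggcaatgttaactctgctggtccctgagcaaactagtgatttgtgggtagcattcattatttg

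The Krtap13-1 member, an intergenic region 8628 bp upstream of this hair keratin-associated gene, held 1 SOX, 1 SOX variant, 1 TEAD and 2 E-box matches in these 200 bases. The Nfib member, in an intron and 37766 bp upstream of the nearest protein-coding TSS of this transcription factor gene, held 3 SOX matches, of which 2 lay within 20 bases of the summit, and 1 E-box. Prdm16, which encodes a zinc finger regulator, had a member in an intron with 2 TEAD matches, and the intergenic Ldlrad3 member had 2 TEAD matches that overlap in a direct repeat, with 3 E-boxes. The Gm4791 member, between genes, held an octamer, an OTX, a SOX variant and an E-box match within 30 bases of its summit. A match is a stretch of letters and does not show that a factor was bound.

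The peaks at members were weaker, not always absent, in KO and CHIR libraries. Of the 534 members, 521 and 459 had a deposited peak of any strength in the KO libraries of day 3 and 301 and 339 in the CHIR libraries. These shares averaged 75.8% over the 4 libraries. They were 97.6% and 86.0% in KO and 56.4% and 63.5% in CHIR libraries. Of all regions, 94.8% and 87.8% had a peak in KO and 88.7% and 90.5% in CHIR libraries. In KO the members thus had a peak about as often as all regions, and in CHIR libraries less often. Of the other regions open in the same 6 libraries, at least 98.6% had a peak in each of the 4. Of the members, 232 (43.4%) kept such a peak in all 4, and 4 had none in any of them. In CHIR libraries 147 members (27.5%) had no peak in either library, whereas only 6 had none in either KO library.

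The median fold enrichment at members, which the authors' peak caller gives at the summit relative to local background, was 4.70 and 3.43 in the KO libraries and 3.57 and 3.74 in the CHIR libraries, over the members with a peak there. It was 8.14 and 8.17 in KO XAV, 6.79 and 7.01 in MUT and 7.96 and 6.35 in WT libraries of day 3, over all members. The 4 medians of KO and CHIR were below the 6 others, a direction that the rule favours since it ranks the same peaks by −log10 p. Relative to a member's mean fold over the 6 open libraries, the median ratio was 0.631 and 0.459 in KO and 0.490 and 0.529 in CHIR libraries. It was at least 1 at 1 member in 1 CHIR library and at none elsewhere. In KO replicate 2 the other regions were weaker as well. At the 35674 other regions that were open in the same 6 libraries, the median fold was 8.50 and 6.78 in KO and 7.68 and 8.22 in CHIR libraries, against 8.78 and 8.87 in KO XAV, 8.36 and 8.18 in MUT and 8.98 and 7.83 in WT libraries.

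**Figure D1:**
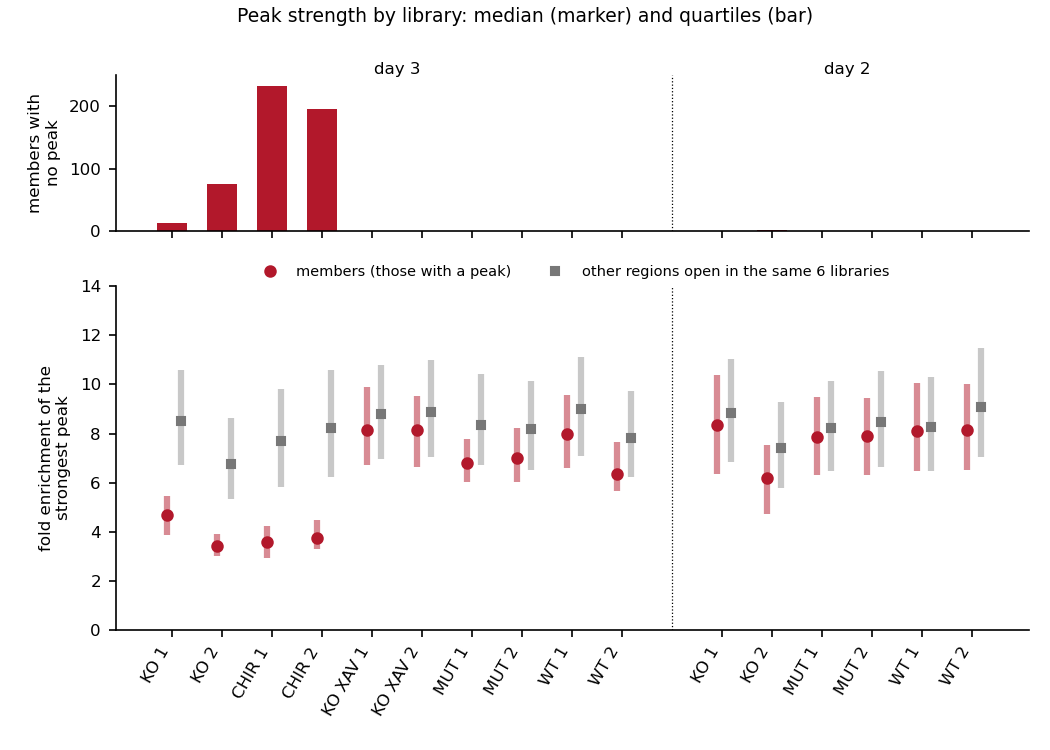
Peak strength in the 16 libraries, with day 3 on the left and day 2 on the right. The upper bars count members with no deposited peak (13 and 75 in KO, 233 and 195 in CHIR, at most 2 elsewhere), and the lower axis gives the authors' fold enrichment, with markers for medians and bars for quartiles, in members with a peak (red) and in the other regions open in the same 6 libraries (grey).

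The libraries themselves differed. The deposited lists held 135359 to 219047 distinct intervals, and the −log10 p of the last kept interval ranged over 6.84 to 21.8. The lowest of both was KO replicate 2 of day 3 and the highest of both KO replicate 1 of day 2. Read depth is unknown, and the part of list length in the results was not tested. Beside the members, 96.8% and 95.6% of the other regions open in the same 6 libraries were open in KO and 87.9% and 88.4% in CHIR libraries. Promoters of 5 to 6 of 6 epiblast markers (Pou5f1, Sox2, Otx2, Fgf5, Dnmt3b and Utf1) and of 4 to 5 of 6 neuroectoderm markers were open in each library. Six3 was closed in all 16 libraries, and Lhx5 was closed in KO replicate 1 of day 3 and both KO libraries of day 2 and open in the other 13. Promoters of 9 to 11 of 12 extraembryonic endoderm, 10 to 12 of 13 trophoblast and 7 to 9 of 14 fibroblast markers were open too. These counts therefore do not tell cell types apart and are no check of the labels. In bulk libraries, fewer cells with an open region and less accessibility per cell cannot be told apart.

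The count is set near a threshold. Another 961 regions were open in the 6 libraries and in 1 of the 4 KO and CHIR libraries, which was KO replicate 1 for 456 and KO replicate 2 for 401 of them, and CHIR replicate 1 for 59 and CHIR replicate 2 for 45. A further 661 were closed in all 4 and open in 5 of the 6, and MUT replicate 1 was the closed one for 216 of them. Among members, 220 were ranked past 45000 in their weakest open library, 172 had a peak within the top 55000 in their strongest KO or CHIR library, and 210 met neither condition. With KO replicate 1 or KO replicate 2 left out of the rule, 990 or 935 regions would have been members. In the wider contrasts, 4.2% of all regions were open in both WT and in neither KO library on day 3 and 9.02% were open in both WT and in neither CHIR library. All members meet both by construction.

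Day 2 was not used to choose the members, and most were open then. A kept interval overlapped 82.0% and 77.5% of members in the KO libraries, against 90.1% and 88.0% in MUT and 92.7% and 87.5% in WT libraries. Both KO libraries were below all 4 MUT and WT libraries. The mean was 79.8% ± 3.18 in KO and 89.6% ± 2.38 in MUT and WT libraries (SD, n = 2 and 4), a difference of −9.78 percentage points. The two-sided exact permutation test gave p = 0.0667, which is the smallest p that the 15 divisions of 6 libraries into 2 and 4 allow, so this design cannot reach the threshold of 0.05. When the top 50000 were replaced by all intervals whose −log10 q reached 2, the difference was −9.39 points and the groups overlapped (exact permutation p = 0.467). The members found that way were open in 96.1% and 67.1% of cases in KO, in 95.0% and 87.9% in MUT and in 96.6% and 84.4% in WT libraries, and the number of intervals then ran over 109026 to 185019, with both extremes in KO libraries.

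**Figure D2:**
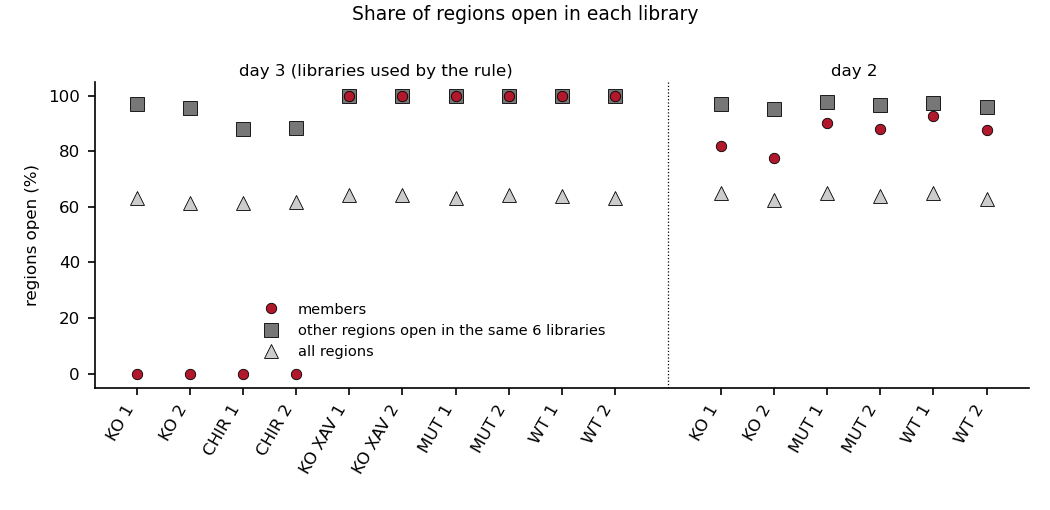
Share of regions open in each library for members (red), the other regions open in the same 6 libraries (dark grey) and all regions (light grey). On day 3 the members are at 0 or 100% because the rule sets them there, and on day 2 both KO libraries (82.0% and 77.5%) sit below the MUT and WT libraries (87.5% to 92.7%).

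The other regions open in the same 6 libraries differed less on day 2. Of these, 96.9% and 95.1% were open in KO, 97.5% and 96.7% in MUT and 97.4% and 96.0% in WT libraries, and these ranges overlapped (mean difference −0.895 points, two-sided exact permutation p = 0.267). The gap between members and these regions within a library was −14.8 and −17.6 points in KO, −7.42 and −8.68 in MUT and −4.71 and −8.54 in WT libraries. KO differed by −8.89 points in this gap (exact permutation p = 0.0667, again the smallest possible). Limited to distal regions, the difference in the gap was −7.70 points with the same p. Members were near the limit of 50000 more often than these regions, at median positions of 26796 to 33036 against 17131 to 17654 on day 2, and the part of this in the gap was not tested.

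The strength of day 2 peaks gave a less clear order. The median rank of members, meaning the share of a library's intervals with a lower −log10 p, was 85.6% and 78.4% in KO, 83.4% and 82.7% in MUT and 84.8% and 80.6% in WT libraries. KO replicate 1 was the highest of the 6 libraries and KO replicate 2 the lowest, and the difference of −0.857 points was within the spread between lines (exact permutation p = 0.8). Without KO replicate 2 its sign turned, to 2.73 points. Counted from the top of each list, the median position was 31177 and 33036 in KO against 28024 and 29067 in MUT and 26796 and 30934 in WT libraries, a difference of 3401 positions toward the bottom with no overlap (exact permutation p = 0.133). The median fold enrichment at members on day 2 was 8.36 and 6.19 in KO, 7.85 and 7.88 in MUT and 8.12 and 8.16 in WT libraries, so of the KO libraries only replicate 2 was low.

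Counted per region, 340 members (63.7%) were open in all 6 libraries of day 2, compared with 89.2% of the other regions open in the same 6 libraries and 47.1% of all regions. In none of them were 6 members (1.12%) open, compared with 0.230% and 18.9%. Of the members, 20 (3.75%) were open in all 4 WT and MUT libraries and in neither KO library, against 0.704% of all regions and 0.331% of the other regions open in the same 6 libraries. The reverse, open in both KO and in none of the 4, was seen at 0 members, against 0.737% of all regions. With WT alone, 35 members (6.55%) were open in both WT and in neither KO library and 3 (0.562%) the other way round, and these calls were made at 2.17% and 1.97% of all regions. In these contrasts 0.583% and 0.314% of the other regions open in the same 6 libraries were called. WT without MUT openness, in both libraries of each, was seen at 12 members (2.25%, against 1.63% of all regions), and the opposite, MUT without WT, was seen at 7 members (1.31%, against 1.73%). Of the other regions open in the same 6 libraries, 0.297% and 0.334% were called in these ways. Members were called more often than those regions in every day 2 contrast other than the reverse of the KO call, which 0 members met. The excess over those regions was seen in both directions between WT and KO and between WT and MUT. Members also lay nearer the limit of kept intervals on day 2, at median positions of 26796 to 33036 against 17131 to 17654. The part of this position in the calls was not tested. Among the 20 was the Tha1 member, in an intron 2478 bp from the nearest TSS of this threonine aldolase gene. Its day 2 fold enrichment was 3.64 and 2.99 in KO, 4.29 and 4.21 in MUT and 5.70 and 6.08 in WT libraries. This order is favoured by the choice of the 20 on the same day 2 libraries, so it is a description.

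The authors' own list of regions that were less accessible in KO than in WT on day 3 was called with DiffBind on read counts of the same libraries. It overlapped 129 members (24.2%), compared with 0.967% of the other regions open in the same 6 libraries and 1.05% of all regions. Their list of regions that were more accessible in KO overlapped 0 members, against 0.0841% of the other regions and 1.15% of all regions. A 0 is favoured by the rule, which wants members open in WT and closed in KO. Both lists came from libraries that the rule used, so this overlap is a description. The overlap with the less accessible list was 7.75% of the 942 members found with all intervals whose −log10 q reached 2. It was 14.8% of the 990 found without KO replicate 1. The 129 members on the list were open on day 2 in 77.5% and 73.6% of cases in KO, against 91.5% and 92.2% in MUT and 98.4% and 90.7% in WT libraries, a mean difference of −17.6 points (two-sided exact permutation p = 0.0667). The 405 members outside it were open in 83.5% and 78.8% in KO, 89.6% and 86.7% in MUT and 90.9% and 86.4% in WT libraries. KO was below all the others in both classes. Whether the classes differ was not tested. The 129 were chosen on low KO values against WT on day 3, by the rule and by the list. The KO and WT lines of day 2 are the same, and the part of this choice in the day 2 difference was not tested.

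Members lay mostly away from promoters. Of the 534, 414 (77.5%) were distal, over 3 kb from every annotated TSS, against 41.2% of the other regions open in the same 6 libraries, 59.1% of all regions and 84.8% of the 633 regions with the reverse pattern, which were open in all 4 KO and CHIR libraries of day 3 and in none of the other 6. Members lay at a median of 11130 bp from a TSS, against 947, 5460 and 13488 bp in those 3 sets. By summit, 50.0% of members were in introns, 42.1% between genes and 7.87% in exons, whereas 24.1% of the other regions open in the same 6 libraries were in exons. They were spread over the genome, with 12 on chromosome X, 49 on chromosome 1 and 0.363% to 0.917% of the regions of each autosome.

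Members were poor in CpG. The 300 bp round the strongest summit had a median GC content of 50.3% in members, 57.7% in the other regions open in the same 6 libraries, 53.3% in all regions and 50.7% in the regions with the reverse pattern. Members had a median of 3 CpG dinucleotides, the sites that TET1 acts on when they are methylated, compared with 10, 5 and 3 in those sets. Only 6 members (1.12%) had an observed-to-expected CpG ratio of 0.6 or more, against 38.5% of the other regions open in the same 6 libraries and 20.3% of all regions. Within the members, 65 (12.2%) had no CpG at all in the 300 bp.

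SOX, TEAD, octamer, OTX and E-box sequences were more frequent in members than in each of the comparison sets, in windows of the same 300 bp. The SOX consensus was present in 41.6% of members, against 18.6% of the other regions open in the same 6 libraries and 22.1% of all regions. The SOX variant was in 29.0% of members, against 9.73% and 12.0%. Either of them was in 58.6% of members, against 26.0% and 31.0%. SOX proteins bind such letters through their HMG box, a domain that bends DNA. The regions with the reverse pattern were near the members in GC content. Of these, 30.5% held the SOX consensus, 12.8% the SOX variant, 17.4% TEAD, 2.84% the octamer, 12.3% OTX and 25.9% the E-box. The part of base composition in these shares was not tested.

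The TEAD consensus was in 31.1% of members, compared with 15.95% of the other regions open in the same 6 libraries and 18.4% of all regions. The octamer was less common, in 7.68% of members, 2.58% of the other regions and 2.77% of all. The OTX consensus, read by bicoid-type homeodomains, was in 18.2% of members, 7.09% of the other regions and 8.71% of all. The E-box, a target of basic helix-loop-helix and of zinc finger E-box factors, was in 42.1%, 27.8% and 28.6%. Members with a SOX sequence of either kind and a TEAD sequence made up 16.5%, against 4.75% of the other regions and 6.18% of all, and 11.8% held either SOX and OTX, against 2.44% and 3.19%. Only 10.9% of members held none of these 6 sequences, against 42.3% of the other regions and 36.8% of all. The LIM homeobox consensus (TAATTA), the core that many homeodomains read, was in 7.30% of members, 2.77% of the other regions and 4.21% of all, but in 7.11% of the regions with the reverse pattern. The ESRRB consensus (AAGGTCA) was in 5.81% of members, 3.94% of the other regions and 4.91% of all. The combined OCT-SOX sequence was rare, in 0.749%, 0.252% and 0.237%.

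**Figure D3:**
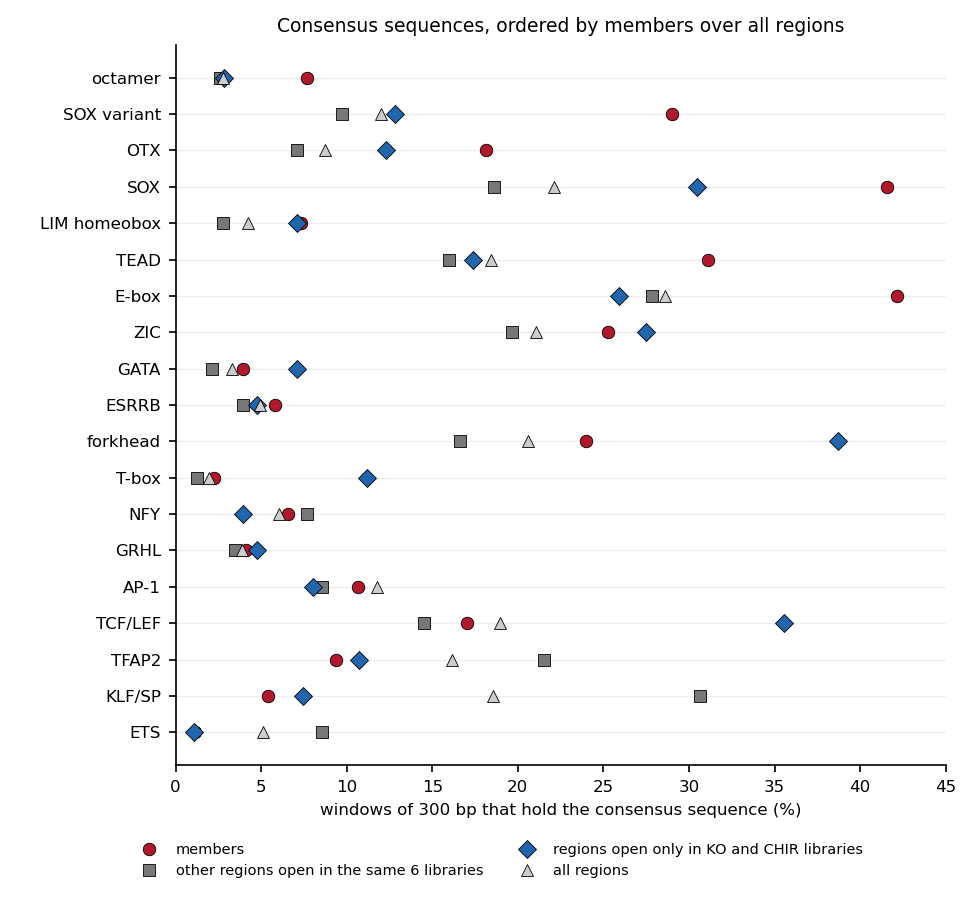
Share of 300 bp windows that hold each of 19 consensus sequences (rows), in members (red circles), the other regions open in the same 6 libraries (dark squares), the regions open only in KO and CHIR libraries (blue diamonds) and all regions (light triangles), ordered by the ratio of members to all regions. Members are furthest to the right for the octamer, SOX variant, OTX, SOX, TEAD and E-box and by smaller margins for LIM homeobox and ESRRB, and the blue diamonds for TCF/LEF, forkhead and T-box.

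Members were more often distal than the regions they were set against, so distal windows were also compared with each other. The SOX consensus was in 43.5% of the 414 distal members, against 25.7% of the other distal regions open in the same 6 libraries and 26.1% of all distal regions. The shares were 32.1%, 13.7% and 14.4% for the SOX variant, 34.3%, 20.8% and 21.3% for TEAD, 7.25%, 3.91% and 3.39% for the octamer, 16.7%, 10.1% and 10.5% for OTX and 43.2%, 32.2% and 30.2% for the E-box. Each of the 6 was more frequent in the distal members.

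The KLF/SP, ETS and TCF/LEF letters searched here did not share this pattern. The KLF/SP consensus (letters GGGCGGG), found in many promoters of housekeeping genes, occurred in 5.43% of members, against 30.6% of the other regions open in the same 6 libraries and 18.6% of all regions. The ETS consensus (CCGGAAG) was in 1.12% of members, against 8.58% and 5.13%. The TCF/LEF consensus (CTTTGA), bound by the DNA-binding partners of β-catenin, was in 17.0% of members, 14.5% of the other regions open in the same 6 libraries and 18.9% of all, while it was in 35.5% of the regions with the reverse pattern. The forkhead consensus (TGTTTNC) was in 24.0% of members and 38.7% of those regions, and the T-box consensus (AGGTGTGA) in 2.25% and 11.2%. These too were searched on both strands. The TCF/LEF letters differ from the SOX letters of the other strand in 1 base, so no stretch matches both. That keeps the letters apart but not the factors, and whether TCF/LEF factors bind the SOX letters was not tested. A T-box match preceded by C is also an E-box match. A SOX sequence of either kind was in 58.6% of members and in 39.8% of those regions.

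The matches were concentrated near the summit. Of 280 SOX matches in members, 44.6% lay within 50 bp of the summit, against 32.3% of 7631 matches in the other regions open in the same 6 libraries, where no bin stood out. For OTX the shares were 46.2% of 104 matches and 32.7% of 2707, for the SOX variant 42.7% of 178 and 34.9% of 3739 and for the E-box 45.8% of 286 and 40.6% of 12262. For TEAD they were close to each other, at 39.9% of 198 and 38.5% of 6452 matches. The octamer went the other way, at 45.2% of 42 matches in members and 52.8% of 987 in the other regions. With a window of 75 bp on either side in place of 150 bp, the SOX consensus was in 26.4% of members against 9.18% of the other regions, and TEAD in 20.4% against 8.94%.

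**Figure D4:**
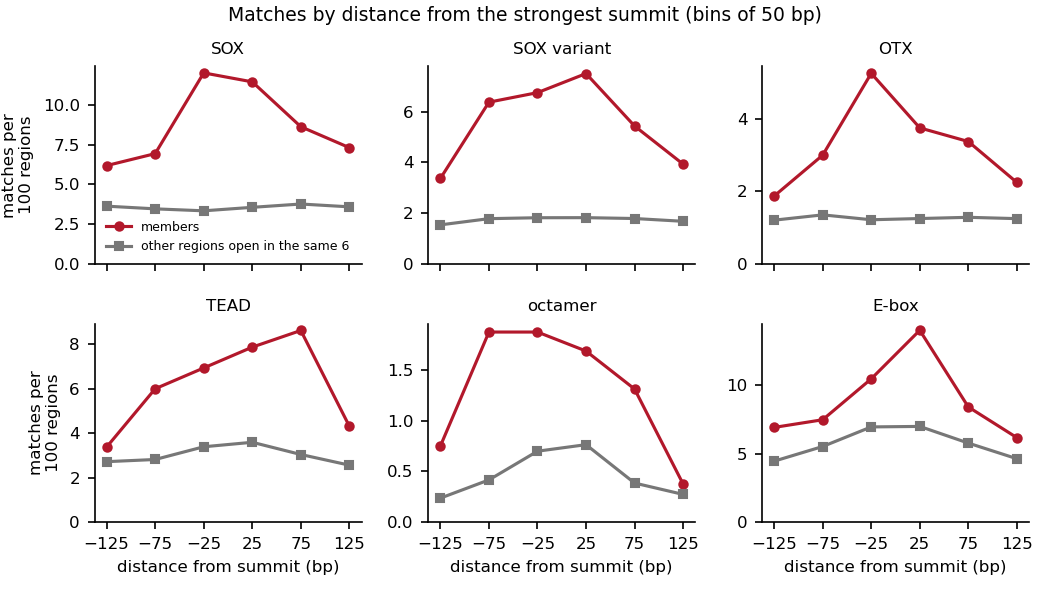
Matches per 100 regions in bins of 50 bp, by distance from the strongest summit, for 6 consensus sequences in members (red) and in the other regions open in the same 6 libraries (grey). The vertical axes start at 0 and differ between panels. SOX matches peak at 12.0 per 100 members just before the summit and are near 3.5 per 100 other regions in every bin.

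Members without any peak in CHIR libraries were more often distal and more often held the SOX variant than those with a weaker one. The 147 members with no peak in either CHIR library held the SOX variant in 40.8% of cases, the SOX consensus in 45.6% and TEAD in 36.1%, and 83.7% were distal. The 253 with a peak in both CHIR libraries held them in 26.5%, 40.7% and 29.6%, and 73.9% were distal. Their median GC content was 47.7% and 52.3%. On the authors' list of less accessible regions in KO were 31.3% of the members with no CHIR peak and 22.1% of those with both. The 134 members with a peak in 1 CHIR library had the lowest shares of these classes. They held the SOX variant in 20.9%, the SOX consensus in 38.8% and TEAD in 28.4%, and 20.1% were on the list. These shares thus did not follow the number of CHIR peaks, whereas the distal share of the 134, 77.6%, lay between the others. These classes come from the libraries that chose the members, so the differences are a description.

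Within 100 kb of a protein-coding TSS lay 402 members, which were nearest to 388 genes, or 2.23% of the 17407 genes with a region. No gene had more than 2 members. The 14 genes with 2 were Cdk17, Radil, Rtn1, Lypd6b, Tanc1, Tmem154, Tcea2, Nav1, Nfib, Srcin1, Ldlrad3, Atf7ip, Gm4791 and Nav2. They include the neuron navigators Nav1 and Nav2, which regulate the cytoskeleton of growing neurites, the synaptic scaffold gene Tanc1, the reticulon Rtn1 of the endoplasmic reticulum and the transcription factor Nfib. Members were rarely neighbours, with 5 pairs within 1 kb. The pairs of Tcea2 and Cdk17 shared their strongest interval in 15 and 12 of 16 libraries. Pairs with no assigned gene on chromosomes 8 and 2 shared theirs in 16 and 8, and the Nav2 pair in 0. The members of a pair that shares its interval are not separate observations.

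The 10 members with the highest lowest rank over the 6 open libraries included those nearest to Krtap13-1, Adarb1, Svep1, Ldlrad3, Tha1, Mycn, Poc1a, Edn1 and Prdm16, with Mycn at 156146 bp and Edn1 at 111416 bp. All 10 were on the authors' list of less accessible regions in KO. The Krtap13-1 member had a fold enrichment of 6.44 and 3.96 in KO and no peak in CHIR libraries on day 3, against 12.4 and 11.4 in KO XAV, 13.5 and 10.3 in MUT and 11.2 and 11.1 in WT libraries. On day 2 it was at 11.7 and 11.5 in KO, 12.5 and 12.4 in MUT and 13.1 and 12.4 in WT libraries. It was thus strong in KO on day 2 and weak there on day 3, the day on which the rule favours low KO values. On day 2 KO was below the MUT and WT libraries by a small margin.

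The Svep1 member, 11893 bp upstream of a gene for an extracellular adhesion protein, held 2 SOX variant matches and was at 6.12 and 3.24 in KO and 2.60 and 3.36 in CHIR libraries on day 3. It reached 17.9 and 14.7 in KO XAV, 11.9 and 13.1 in MUT and 15.2 and 10.7 in WT libraries. On day 2 it was at 13.4 and 9.90 in KO, 18.3 and 14.9 in MUT and 16.9 and 17.3 in WT libraries, and KO did not overlap the others.

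**Figure D5:**
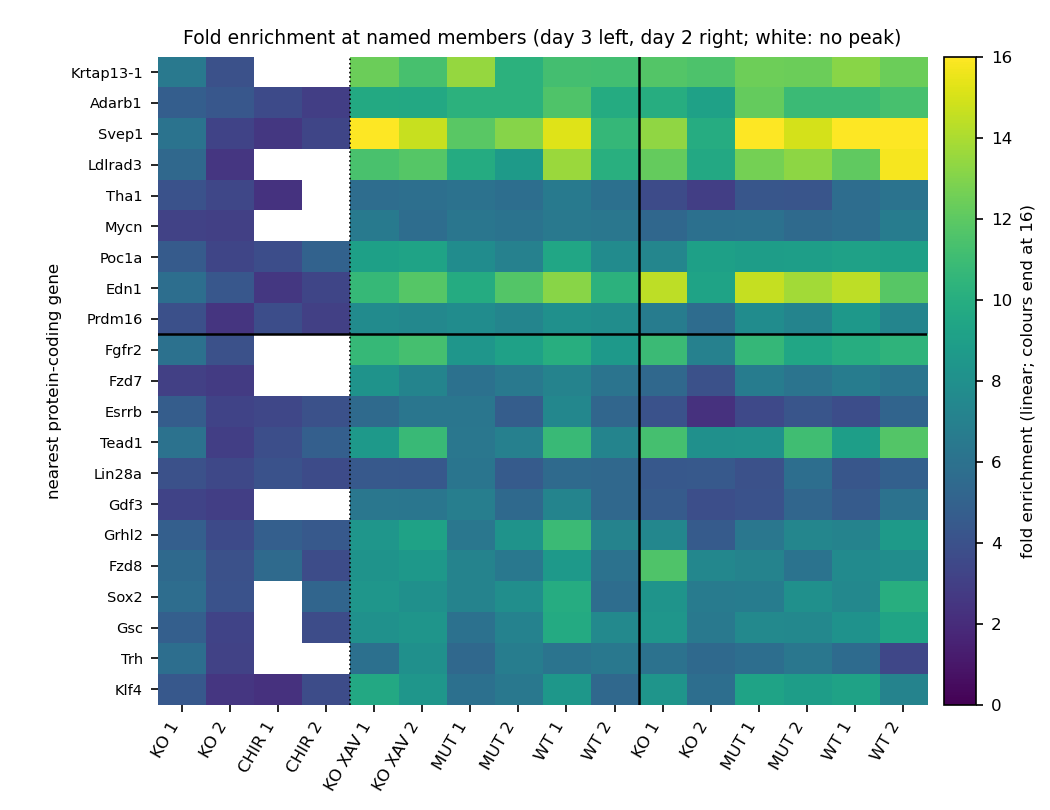
Authors' fold enrichment (colour, linear) at 9 of the 10 members with the highest ranks (above the line, named by nearest gene) and at the members of 12 of the 13 listed genes (below it), in 10 libraries of day 3 and 6 of day 2. White cells had no deposited peak. In the KO and CHIR columns the Krtap13-1 member is at 6.44, 3.96 and no peak, and the 6 columns to their right are at 10.3 to 13.5.

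Among 269 genes in lists of pluripotency, germ layer, signalling and other cell type genes, 267 had a region and 13 had a member, 1 each. This was 0.646% of their 2013 regions, close to the 0.567% of all regions assigned to a gene, so the lists as a whole were not singled out. Members were found for 2 of 24 genes of formative and primed pluripotency (among them Lin28a), 2 of 18 of naive pluripotency (Klf4 and Esrrb), 1 of 35 of neuroectoderm (Sox2), 1 of 20 of surface ectoderm and neural crest (Grhl2), 1 of 18 of primitive streak (Gsc) and 1 of 16 of endoderm (Trh). In the signalling lists they were found for 2 of 34 Wnt (Fzd7 and Fzd8), 1 of 18 Nodal (Gdf3), 1 of 20 FGF and ERK (Fgfr2) and 1 of 23 Hippo and TEAD genes (Tead1). None of 20 mesoderm, 12 extraembryonic endoderm and 15 housekeeping genes had a member, and none of the 12 of 14 fibroblast genes with a region. In the trophoblast list, 1 of 13 genes had one, again Fgfr2.

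The receptors of the Wnt list came from the same family. The member 13007 bp upstream of Fzd7, a Frizzled receptor for Wnt ligands, was at 3.03 and 2.78 in KO and had no peak in CHIR libraries on day 3, against 8.24 and 7.24 in KO XAV, 5.96 and 6.45 in MUT and 7.15 and 6.16 in WT libraries. On day 2 it was at 5.42 and 3.96 in KO, 6.74 and 6.16 in MUT and 6.70 and 6.21 in WT libraries. On day 2 KO was below the MUT and WT libraries with no overlap, while the order of day 3 is one that the rule favours. The member 18935 bp downstream of the TSS of Fzd8, another Frizzled receptor, was at 5.47 and 3.96 in KO and 5.52 and 3.74 in CHIR, against 8.20 and 8.56 in KO XAV, 7.13 and 6.40 in MUT and 8.65 and 6.00 in WT libraries. On day 2 its KO values, 11.6 and 7.42, were within or above those of the MUT (7.14 and 6.10) and WT (7.68 and 7.82) libraries.

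The member in Fgfr2, the FGF receptor gene, lay in an intron 1016 bp downstream of the TSS with a SOX and a SOX variant match in the printed bases. It was at 5.96 and 3.96 in KO, with no peak in CHIR libraries, against 10.7 and 11.3 in KO XAV, 8.38 and 9.14 in MUT and 10.0 and 8.69 in WT libraries. On day 2 it was at 10.9 and 7.03 in KO, 10.7 and 9.47 in MUT and 9.95 and 10.4 in WT libraries, and the groups overlapped. Gdf3, a ligand of the Nodal type, had a member in an intron 1206 bp from its TSS, which was at 3.20 and 2.94 in KO and had no peak in CHIR libraries, against 6.35 and 6.28 in KO XAV, 6.86 and 5.47 in MUT and 7.24 and 5.41 in WT libraries. It was open in 3 of the 6 day 2 libraries, the replicate 2 of each genotype, whose lists are the ones named as merged.

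Among the pluripotency genes the contrast was small for Lin28a and Esrrb and large for Klf4. The Lin28a member, in an intron 544 bp from the TSS of this RNA-binding protein gene, was at 3.97 and 3.49 in KO and 4.01 and 3.66 in CHIR, against 4.47 and 4.40 in KO XAV, 6.24 and 4.60 in MUT and 5.52 and 5.43 in WT libraries. The groups did not overlap, though the gap was small. The Klf4 member lay 67364 bp from this reprogramming factor gene but 1408 bp from an annotated TSS, so it was not distal. It was at 4.39 and 2.52 in KO and 2.27 and 3.74 in CHIR, against 9.67 and 8.40 in KO XAV, 5.90 and 6.39 in MUT and 8.46 and 5.39 in WT libraries. The Esrrb member, in an intron 5145 bp from the TSS of this orphan nuclear receptor, was at 4.71 and 3.20 in KO and 3.42 and 3.96 in CHIR, against 5.51 and 6.26 in KO XAV, 6.26 and 4.74 in MUT and 7.38 and 5.26 in WT libraries. It was among the 6 members that were closed in all 6 day 2 libraries, so at this region the day 3 openness was not yet among the top 50000 on day 2.

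The Sox2 member lay between genes, 41896 bp downstream of the TSS of this neural and pluripotency factor, with 15 CpG dinucleotides in its window. It was at 5.71 and 4.05 in KO libraries, had no peak in CHIR replicate 1 and 5.23 in CHIR replicate 2, against 8.38 and 8.01 in KO XAV, 7.17 and 7.93 in MUT and 9.90 and 5.72 in WT libraries. KO replicate 1 and WT replicate 2 were level here. On day 2 all 6 libraries had it open, at 8.30 and 6.68 in KO, 6.72 and 8.04 in MUT and 7.49 and 10.0 in WT libraries. The member near Gsc, a homeobox gene of the primitive streak organiser, was at 4.83 and 3.24 in KO and at 3.74 in CHIR replicate 2 with no peak in CHIR replicate 1, against 8.12 and 8.34 in KO XAV, 5.96 and 7.08 in MUT and 9.80 and 7.54 in WT libraries. It lay 34806 bp upstream of Gsc but 1062 bp from an annotated TSS, so it was not distal. It was open in all 6 libraries of day 2. The member near Tead1, which encodes a TEAD factor itself, was in an intron 53079 bp downstream of the TSS and was at 6.02 and 2.99 in KO and 3.85 and 4.86 in CHIR, against 8.66 and 10.8 in KO XAV, 6.32 and 6.99 in MUT and 10.8 and 7.24 in WT libraries. It held an E-box and no TEAD match in its 300 bp window.

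Grhl2 and Trh had members far from their protein-coding TSS. The Trh member lay 1237 bp from an annotated TSS, so it was not distal. The member 46739 bp upstream of Grhl2, an epithelial transcription factor gene, was at 4.83 and 3.60 in KO and 4.87 and 4.49 in CHIR, against 8.38 and 9.23 in KO XAV, 6.32 and 8.23 in MUT and 10.9 and 7.18 in WT libraries. It held a SOX, a SOX variant and an E-box match and was on the authors' list. The member 28159 bp upstream of Trh, the gene of thyrotropin-releasing hormone, was at 5.80 and 3.15 in KO with no peak in CHIR libraries, against 5.90 and 8.06 in KO XAV, 5.39 and 6.79 in MUT and 6.15 and 6.41 in WT libraries. Here KO replicate 1 exceeded MUT replicate 1, which shows that a closed call at the limit of 50000 need not mean a lower fold.

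Of the genes with 2 members, Nfib and Nav1 had both on the authors' list of less accessible regions in KO, and both Nfib members had no peak in either CHIR library. The Nfib member printed above was at 3.46 and 2.68 in KO, against 7.10 and 8.25 in KO XAV, 5.46 and 6.40 in MUT and 7.54 and 6.28 in WT libraries. The other Nfib member, in an intron 68294 bp downstream of the TSS, was at 3.73 and 3.36 in KO, against 8.55 and 9.99 in KO XAV, 5.71 and 5.70 in MUT and 7.56 and 5.60 in WT libraries. All 6 day 2 libraries had both Nfib members open. The Ldlrad3 member printed above was at 5.41 and 2.52 in KO with no peak in CHIR libraries, against 11.4 and 11.8 in KO XAV, 9.82 and 8.70 in MUT and 13.6 and 10.1 in WT libraries. On day 2 it was at 12.2 and 9.67 in KO, 12.7 and 13.3 in MUT and 12.1 and 15.8 in WT libraries, where KO replicate 1 was level with WT replicate 1.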

How the data were processed

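The authors processed omni-ATAC reads of 16 libraries with the ENCODE pipeline against mm10 and deposited a peak list per library. The aligner and peak caller versions, not given in the sources used here, stay unnamed. In the deposited lists, fold enrichment is a ratio to local background, p and q are given as −log10 values, and the authors' display score was not used. The authors also deposited coordinates of regions that differed between KO and WT on day 3, called with DiffBind 3.0.15. The submitters' notes also name HOMER 2 and deepTools 3.4.3.

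Intervals listed once per summit were counted once, with the values at the highest −log10 p, and every summit of a kept interval made a window. Regions were annotated with GENCODE M21, assigned to the nearest protein-coding TSS within 100 kb, and searched on GRCm38.p6 for 21 consensus sequences in 300 bp round the strongest summit. Named are the genes with the most members, the listed genes with a member and the 10 members of highest rank, of which 2 are not reported here. Members and lists were chosen with earlier results of these data known. Groups of day 2 were compared with two-sided exact permutation tests. Steps ran in Python 3.11.15 with pandas 2.3.3, scipy 1.17.1 and pysam 0.24.0. In simulated lists all 200 planted members were recovered with 0 false ones. This checks the steps alone and gives no rate of false members for the deposited lists, where many members lay near the limit. No read depth or count was available to this work, so no interval is given for depth.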

Additional observations from a re-analysis of the deposited data

How the results depend on the processing

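The number of members was 412 to 629 with the top 40000 or 60000 intervals, other window widths (75 and 250 bp), a larger required overlap or 3 libraries per region, and 942 with all intervals whose −log10 q reached 2. Leaving out each of the 10 libraries of the rule in turn gave 579 to 990 members, of which 75.1% to 79.1% were distal and 14.8% to 23.1% overlapped the authors' less accessible regions. The 990 and 935 were found without KO replicate 1 and KO replicate 2. That overlap was 19.2% with the top 60000 intervals and 7.75% with the −log10 q limit. With 1 kb in place of 3 kb, 91.0% of members were distal. Leaving out each day 2 library in turn gave a KO difference of −12.0 to −7.54 points in members and −10.3 to −7.50 points in the gap to other regions. The median rank difference ranged over −4.44 to 2.73 points and turned its sign without KO replicate 2. Added after the data were seen were the distal gap, the rank relative to the other regions (−1.50 points, exact permutation p = 0.467), the list position, the day 2 rank without each library, and WT alone as the control (−10.3 points, exact permutation p = 0.333). With WT alone, both KO libraries were below both WT libraries, and this p is the smallest that such a split allows. Of 399 values of consensus sequence shares, 24 moved outside the 95% exact binomial interval of the main share. No paired analysis was possible because each line gave 1 day 2 library and the KO, MUT and WT lines are different lines. The 2 KO lines leave no exact test able to reach 0.05, and the unknown depth limits what a closed call means.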

Other observations

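On day 2, 62 members were closed in both KO libraries and 380 were open in both. The 62 held the SOX consensus in 43.5% of cases, the SOX variant in 25.8%, the TEAD consensus in 35.5% and the E-box in 45.2%, against 43.2%, 28.2%, 28.7% and 40.8% of the 380. These shares were not tested against each other.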
